A study of Gallus gallus with 12 samples.

Results

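Genes of the mitotic machinery were followed in 12 RNA sequencing libraries of chick (Gallus gallus) embryos. They were taken by name: cyclins A and B, the CDC25 phosphatases and CDC20, FOXM1, aurora and polo-like kinases, TPX2, BUB1 and BUB3 families, CENP proteins, NDC80 and NUF2, condensin subunits of the NCAP series, TOP2A, MKI67, and every numbered kinesin. The pattern matched 75 of the 13106 genes in the count table. Not all of these act in mitosis: 18 are kinesins known for cargo transport or cilia or without a settled mitotic role, and AURKAIP1 was matched by the start of its symbol, so the genes were sorted into 9 roles. In each embryo the Organiser (Hensen's node, the tip of the primitive streak that lays down the axis) had been marked with a fluorescent label when gastrulation ended. Fluorescent cells that stayed in the mature Organiser gave a node library, and ectoderm and mesoderm lateral to it gave a lateral library. Of 6 embryos, 3 were dissected by hand while alive (manual) and 3 were fixed in modified methacarn, embedded in paraffin and cut by laser capture microdissection (LCM). Embryo 1 of each method had 8 somites and embryos 2 and 3 had 9. No genotype or drug treatment is given, and the marked population is defined by where the label lay, not by a gene.

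A dividing cell condenses its chromosomes with condensin and topoisomerase II, enters mitosis under cyclin B with its CDK1 partner and the polo and aurora kinases, and builds a bipolar spindle with kinesin motors. Kinetochores, assembled on centromeric chromatin by the inner CENP proteins, hold microtubules through the NDC80 complex, and the BUB proteins delay CDC20 until every chromosome is attached. Most of these genes are transcribed late in the cell cycle, many through FOXM1, so in a mixed tissue their RNA is commonly read as a sign of dividing cells. The roles named below were worked out mainly in human, mouse, frog and yeast cells. In bulk samples like these, fewer dividing cells and less RNA per cell cannot be told apart.

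Total counts ran from 18568123 to 30997461 per library. The Organiser marker T (Brachyury) was higher in the node than beside it in 6 of 6 embryos, with 7507 to 35422 node and 526 to 18038 lateral counts. SHH, another defining node gene, was at 0 in all 6 LCM libraries. The notochord gene GNOT1 was lower in the node of LCM embryos 1 (333 against 1251 counts) and 2 (810 against 882). It was higher in the node of the other embryos. CHRD had more node than lateral counts in every embryo but LCM embryo 1 (0 against 1), and NOG had at most 43 counts in any library. Of the other tissues a dissection could include, the 3 presomitic mesoderm markers (TBX6, DLL1, MSGN1) summed to 343 to 575 CPM (counts scaled to library size) in LCM node libraries against 60 to 113 CPM in manual node libraries. In lateral libraries they summed to 38.1 to 667 CPM (LCM) and 72.6 to 90.3 CPM (manual), and TBX6 and MSGN1 were both at 0 in LCM lateral 2. The blood gene HBAA was at 0 in all libraries but LCM lateral 2, which had 11672 counts. The summed CPM of the 3 endoderm markers found (TF, TTR, CLDN1) overlapped between all groups, but single markers differed. TF had more counts in the node than laterally in every embryo, and CLDN1 had fewer in every embryo. The neural plate marker SOX2 summed to at most 31.1 CPM. In the node library of LCM embryo 2, counts were found for 100 of 104 genes otherwise counted in manual embryo 1 alone, at 6.22% of the manual lateral 1 level. The source of these counts was not tested. What 6.22% of manual lateral 1 would come to is called the carried share and given beside counts of LCM node 2 below; for some members, such as KIF14, it exceeds the count found.

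Without matching for level, the mitotic and kinesin genes were counted more evenly than the rest of the table. All 12 libraries held at least 1 count for 52 of the 75 (69.3%), against 4909 of all 13106 genes (37.5%). The median standard deviation within a group of 3 libraries was 1.62 log2 CPM over the 72 members tested and 2.14 over all genes tested, and for 25 of the 72 it lay below the first quartile of all genes. The steadiest were CENPN (0.33 log2 CPM), CCNB2 (0.37), CENPW (0.42), BUB3 (0.43) and AURKA (0.45). At the other end CENPJ, a centriole assembly protein, varied by 4.15 log2 CPM within groups and KIF3B, the partner of KIF3A in a cilium and transport motor, by 3.90. The steadiest genes named had mean levels of 6.1 (CENPN) to 9.58 log2 CPM (BUB3), against 0.79 for CENPJ and 3.04 for KIF3B. The part of level in the detection and spread of these genes was not tested. In single libraries 0 to 11 of the 75 had no count after manual dissection and 4 to 13 after LCM. A count of 0 allows up to 3 counts, for counting error only. The genes CCNA1, CENPA and KIF7 had too few counts to be tested: CCNA1, the germ-line cyclin A, had 7 and 10 counts in the libraries of manual embryo 1 and 0 elsewhere, CENPA, the centromeric histone, at most 14 counts in any library, and KIF7, a Hedgehog pathway kinesin, 160 counts in LCM node 2 (carried share 0) and at most 35 elsewhere.

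**Figure D1:**
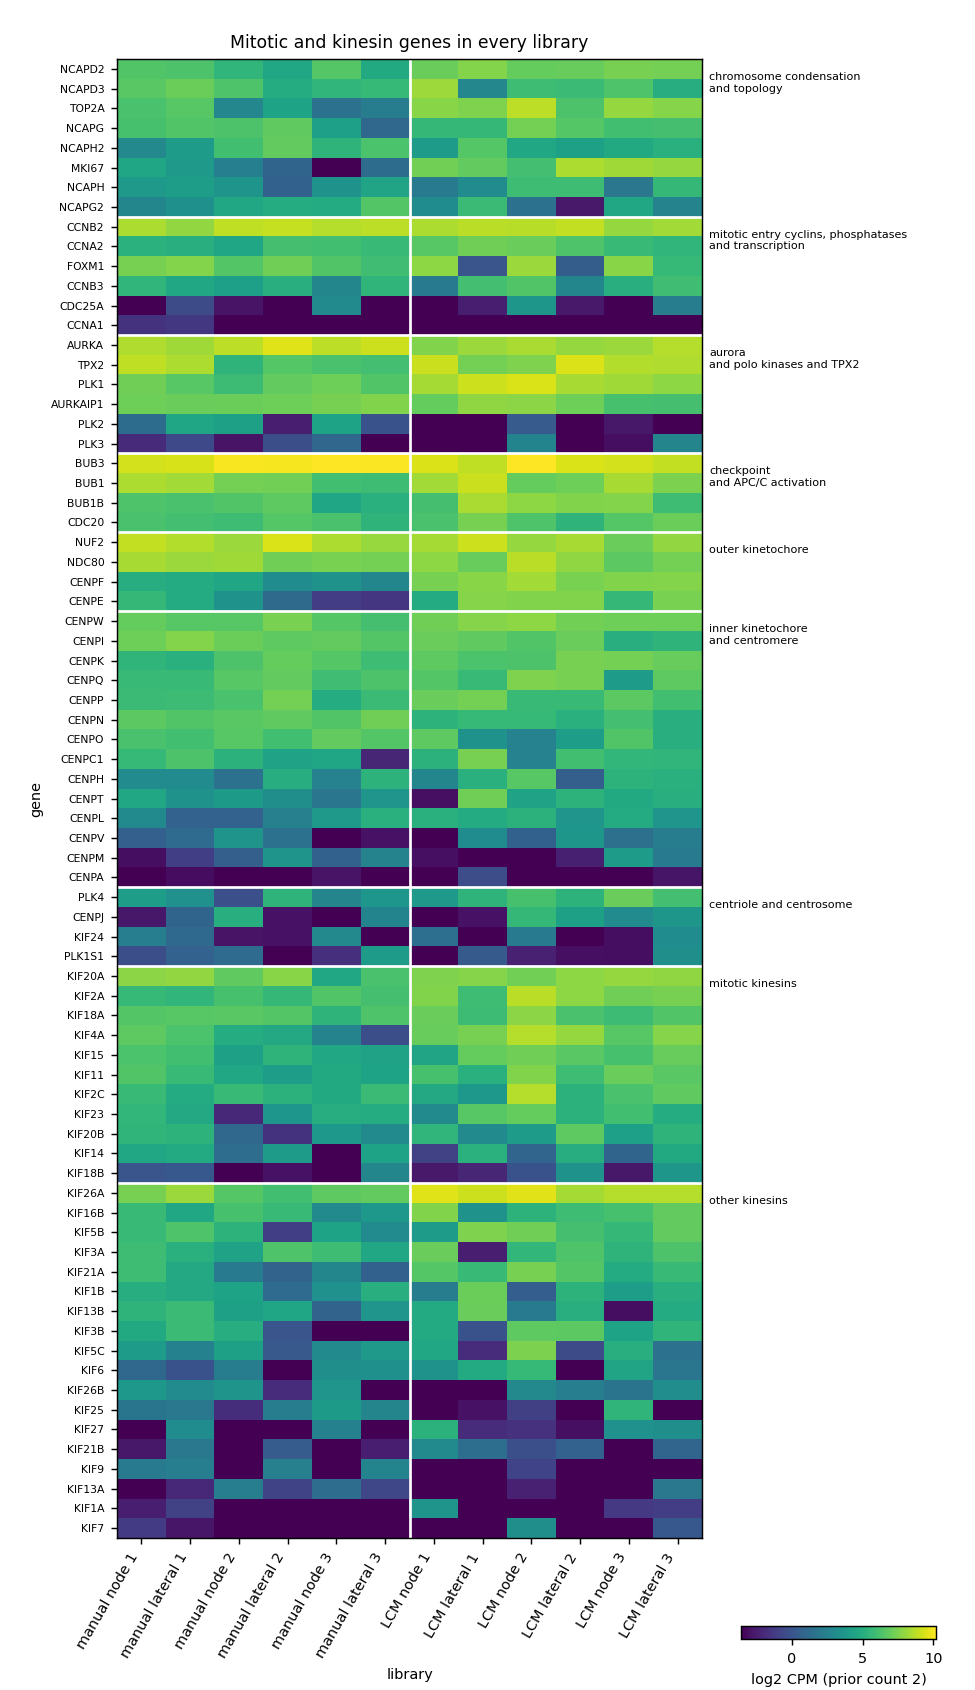
Level of each of the 75 genes (rows, grouped by role) in each of the 12 libraries (columns), as log2 CPM with a prior count of 2; white lines part the roles and the dissection methods. CCNB2, AURKA, BUB3, NUF2 and NDC80 are high in every column, while MKI67, TOP2A, CENPF and CENPE are darker in the manual columns than in the LCM columns.

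The first comparison asked whether dividing-cell transcripts differ between the Organiser and the tissue beside it, with each embryo as its own pair. The signs of their log2 fold changes were close to balanced, which does not show equal levels. Single members ran from -4.27 to 4.58. Member medians of the node minus lateral difference ran from -0.23 in LCM embryo 1 to 0.61 in LCM embryo 2, where all genes had 0.9. Of the 72 members tested, 35 had a positive node over lateral log2 fold change and 37 a negative one, with a median of 0.00 against 0.17 over all 9491 genes tested. That 0.17 rests on LCM embryo 2: the median of all genes was -0.01 without that embryo and -0.06 with the carried share subtracted. Of the 55 members outside the non-mitotic kinesins, 22 were positive and 33 negative (40% positive, median -0.08). With all embryos in the fit, 57.8% of all genes were positive. The non-mitotic kinesins were positive in 13 of 17. No member passed an adjusted p of 0.05 (edgeR quasi-likelihood test with Benjamini-Hochberg adjustment), nor did any other gene (0% called). By edgeR's unadjusted p below 0.05 there were 2 members, KIF14 and KIF5C, where 3.41% of all genes had such a p. By DESeq2 the same pair passed an adjusted p of 0.05 (2.58% of all genes), and limma voom called no member and no gene (0%).

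Among the genes of mitotic entry CCNB2 had the narrowest limits and CDC25A the widest. CCNB2, a B-type cyclin, measured 362, 466 and 396 CPM in manual node libraries and 249, 494 and 449 CPM in the lateral ones. After LCM it measured 363, 412 and 254 CPM in the node and 425, 482 and 308 CPM laterally. These 4 groups overlap, and the log2 fold change was -0.08 ± 0.22 (SE; 95% interval -0.56 to 0.40), with the lateral library higher in 5 of 6 embryos. CCNA2, the S-phase and mitotic cyclin A, gave -0.13 ± 0.50 (95% interval -1.22 to 0.96), and CCNB3, another B-type cyclin, -0.78 (95% interval -3.20 to 1.63). FOXM1, described below, gave 2.11 ± 1.26 (95% interval -0.61 to 4.83). CDC25A, a phosphatase that activates CDKs, gave -0.43 with a 95% interval of -9.62 to 8.77, so nothing can be read from it. AURKA, the centrosomal aurora kinase, gave -0.24 ± 0.24, and TPX2, which activates it on the spindle, gave -0.14 ± 0.42. PLK1, the main mitotic polo kinase, gave 0.15 ± 0.33. In this role group PLK2, a polo kinase better known from stress responses and neurons, had the largest value, 4.58 ± 2.48. The manual embryos had 67 node against 745 lateral counts (embryo 1), 363 against 2 (embryo 2) and 385 against 17 (embryo 3), so embryo 1 went the other way. In LCM libraries PLK2 had 0 counts in 4 of 6, 20 in node 2, where the carried share alone would give 46, and 2 in node 3.

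Checkpoint and kinetochore genes also had estimates on both sides of 0. BUB3, which brings the checkpoint proteins to kinetochores, measured 613, 1080 and 1130 CPM in manual node libraries against 639, 1020 and 1100 CPM laterally, and 712, 1160 and 606 CPM against 458, 678 and 485 CPM after LCM. The manual pairs were nearly equal and the node was higher in each LCM pair; the carried share is 1269 of the 19447 counts in LCM node 2. The log2 fold change over both methods was 0.30 ± 0.19 (95% interval -0.11 to 0.71). BUB1, the checkpoint kinase, gave 0.03 ± 0.29 and its sign changed with the scaling (values under the alternatives are given further on). For the microtubule-holding NDC80 and NUF2, which form a dimer, the log2 fold changes were 0.41 ± 0.30 and -0.44 ± 0.28, opposite in sign and each with a 95% interval that includes 0. Of 13 inner kinetochore genes tested, 4 were positive and 9 negative, from -1.78 to 0.69. CENPW, a histone-fold subunit, gave 0.00 ± 0.36 and CENPI, a partner of CENPH and CENPK, -0.07 ± 0.37. Among the chromosome condensation genes 4 of 8 were positive, with NCAPD2 of condensin I at 0.34 ± 0.43 and NCAPD3 of condensin II at 1.03 ± 0.73. For the centriole genes PLK4, the kinase that starts centriole duplication, and CENPJ the values were -0.61 ± 0.99 and -1.42 ± 2.33.

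The kinesins held the members with a direction shared by all embryos. KIF11, the motor that pushes spindle poles apart (chromosome 6, 20272561 to 20290598), measured 86.2, 25.8 and 26.9 CPM in manual node libraries and 52.5, 17.2 and 21.3 CPM in their lateral partners. After LCM it measured 71.6, 189 and 132 CPM in the node and 35.5, 61.0 and 101 CPM laterally. The carried share is 104 of the 3153 counts in LCM node 2. The node was higher in 6 of 6 embryos, by 0.34 to 1.63 log2 CPM, and KIF11 was the one member of 72 with that pattern, which 3.33% of all genes showed. Its log2 fold change of 0.77 ± 0.48 did not pass (adjusted p = 0.999, edgeR), and it was picked out after its values were seen.

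KIF14, a kinesin of the spindle midzone that works in cytokinesis (chromosome 8, 1448262 to 1477082), was lower in the node in all 6 embryos. Node against lateral, manual embryo 1 had 708 against 911 counts, embryo 2 had 46 against 322, and embryo 3 had 0 against 417. The LCM pairs had 12 against 738, 30 against 832, and 48 against 892 counts. Manual embryo 1 was nearly even, and in the other 5 embryos node libraries held a small part of the lateral counts; the 30 counts of LCM node 2 lie below the 57 that the carried share would give. The log2 fold change was -4.27 ± 1.60 (95% interval -7.73 to -0.82, unadjusted p = 0.0193, adjusted p = 0.999 by edgeR). DESeq2 gave -4.41 with an adjusted p of 0.00147.

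KIF13B and KIF18B were the other members lower in the node of 6 of 6 embryos, a pattern of 3 members and of 1.02% of all genes. KIF13B, a transport kinesin, had 1161 node against 1794 lateral counts, 355 against 469 and 30 against 240 after manual dissection, and 739 against 2645, 68 against 881 and 1 against 967 after LCM. The carried share for the 68 counts of LCM node 2 is 112. The log2 fold change was -2.45 ± 1.16 (adjusted p = 0.999, edgeR). KIF18B, which trims astral microtubules, had 27 node against 34 lateral counts, 0 against 1 and 0 against 130 after manual dissection, and 2 against 3, 14 against 299 and 2 against 423 after LCM, so in manual embryo 2 and LCM embryo 1 its direction rests on too few counts to be read. KIF20A, a cytokinesis kinesin, gave -0.56 ± 0.33, lower in the node in 5 of 6 embryos. KIF21B, which pauses microtubule growth, gave -4.27 ± 2.56 from counts of 0 to 209, and was higher in the node of LCM embryo 1.

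KIF5C, a heavy chain of conventional kinesin known from neurons (chromosome 7, 34274371 to 34333241), went the other way. The manual pairs, node against lateral, had 449 against 171, 362 against 22, and 137 against 291 counts. The LCM pairs had 669 against 4, 2970 against 18, and 922 against 94 counts. The node was higher in 5 of 6 embryos, with manual embryo 3 as the exception. The log2 fold change was 3.90 ± 1.49 (95% interval 0.66 to 7.13, unadjusted p = 0.0219, adjusted p = 0.999 by edgeR). DESeq2 gave 3.87 with an adjusted p of 0.00428. The carried share is 11 of the 2970 counts in LCM node 2. The SOX2 counts of the same node libraries were 56, 1, 85, 5, 520 and 0, and their part in the KIF5C values was not tested. Kinesins described for their high mean log2 CPM lay nearer to even: KIF2A, a microtubule depolymerase, at 0.58 ± 0.37, KIF26A, an atypical kinesin without motor activity, at 0.24 ± 0.28, and KIF16B, an endosome motor, at 0.39 ± 0.73.

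**Figure D2:**
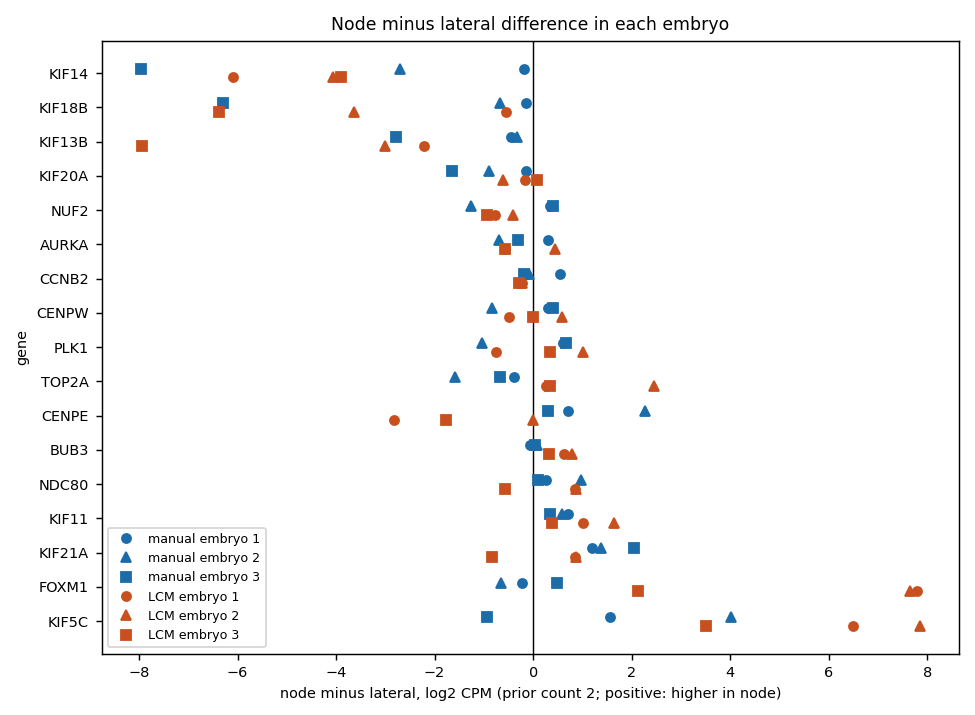
Node minus lateral difference in log2 CPM (horizontal axis, prior count 2; positive is higher in the node) for 17 members (vertical axis) in each of the 6 embryos; blue points are manual and orange points LCM embryos, and the shape gives the embryo. KIF14, KIF18B and KIF13B lie left of 0 in 6 of 6 embryos and KIF11 right of 0, while CCNB2, CENPW and AURKA stay within about 1 of 0.

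The node against lateral difference was also fitted within each method. In manual embryos no member passed (0% of all genes called by edgeR), and no member had an unadjusted p below 0.05, against 0.98% of all genes. DESeq2 called no member there either (0.421% of all genes). In LCM embryos edgeR called no member (0.0211% of all genes), and 6 members had an unadjusted p below 0.05, which is 3 on each side, against 5.22% of all genes (3.89% on the node side and 1.33% on the lateral side). These were FOXM1, KIF5C and BUB3 on the node side and KIF13B, KIF14 and KIF1B on the lateral side, all named after their values were seen. DESeq2 called FOXM1, KIF5C, KIF13B, KIF14 and KIF1B in LCM embryos, 5 members where it called 9.2% of all genes.

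FOXM1, the forkhead factor that drives late cell cycle genes (chromosome 1, 75109437 to 75119160), had the smallest p of these. In LCM embryos its node counts were 6024, 4683 and 5920 and its lateral counts 19, 35 and 1618. In manual embryos its node counts were 4710, 1745 and 1586 and its lateral counts 6222, 2891 and 1249. The LCM node and lateral libraries did not overlap, with the lateral libraries of embryos 1 and 2 nearly empty of FOXM1, and the manual ones overlapped. The log2 fold change was 6.37 ± 1.30 in LCM embryos (unadjusted p = 0.000323, adjusted p = 0.34 by edgeR), and the carried share is 387 of the 4683 counts. The difference between the methods was 6.50 ± 1.56 (unadjusted p = 0.00118, adjusted p = 1 by edgeR). Both values passed under other settings. DESeq2 gave adjusted p values of 6.63e-09 for LCM embryos and 0.000308 for the difference. Without a filter on low counts edgeR gave 8.72e-05 (0.252% of all genes called) and 0.00452 (0.0382%). Without LCM embryo 3 edgeR gave 0.0234 for LCM embryos (0.0893%). LCM embryo 3 had the smallest node minus lateral difference of the LCM embryos (2.12 log2 CPM, against 7.8 and 7.64). Leaving it out raises the estimate by itself, so that call is not a separate result. In LCM lateral 1 and 2, the libraries with fewest FOXM1 counts, PLK1 measured 553 and 336 CPM and CENPF 213 and 171 CPM. Other members were low there. In LCM lateral 1, KIF2C (13.6 CPM) and NCAPD3 (6.78 CPM) had their lowest level of any library. In LCM lateral 2, TOP2A (81.4 CPM) and CDC20 (41.8 CPM) had their lowest level of any LCM library. All of these were looked up after their values were seen, and the part of FOXM1 in them was not tested.

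The difference between methods was tested for every member, and by edgeR none passed (0% of all genes called). With an unadjusted p below 0.05 there were FOXM1 and CENPE, where 2.59% of all genes had one (1.97% with a more positive value in LCM, as for FOXM1), and DESeq2 called FOXM1 alone among members (2.7% of all genes). CENPE, a kinetochore kinesin that moves chromosomes to the spindle equator, measured 47.6, 10.9 and 0.387 CPM in manual node libraries and 29.1, 2.2 and 0.299 CPM laterally, so each pair was higher in the node, in embryo 3 by 7 against 6 counts, too few to give a direction. After LCM it measured 29.0, 190 and 48.5 CPM in the node and 205, 191 and 167 CPM laterally, so 2 pairs were lower in the node and the pair of embryo 2 nearly equal. The difference was -2.72 ± 1.17 (unadjusted p = 0.0379, adjusted p = 1 by edgeR).

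The second comparison set LCM against manual embryos, with the counts of each embryo summed. It holds different embryos, different handling (fixed and embedded against live tissue) and different cutting, which cannot be told apart here. The mitotic and kinesin genes took 0.771 to 0.868% of all counts in the 6 LCM libraries and 0.43 to 0.649% in the 6 manual libraries, with no overlap. Of 72 members tested, 54 (75%) had a higher level in LCM embryos, against 51.8% of all genes, and the median log2 fold change was 0.81, against 0.06 over all 9113 genes tested. No member passed an adjusted p of 0.05 by edgeR, and no gene did (0% called); limma voom also called none (0%). By edgeR's unadjusted p below 0.05 there were 12 members higher in LCM, where 5.44% of all genes were, and 3 lower, where 7.83% were. DESeq2 called 7 members (7.91% of all genes). The 3 LCM sums all lay above the 3 manual sums for 18 members (11.5% of all genes) and all below for 5 (13.2% of all genes).

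**Figure D3:**
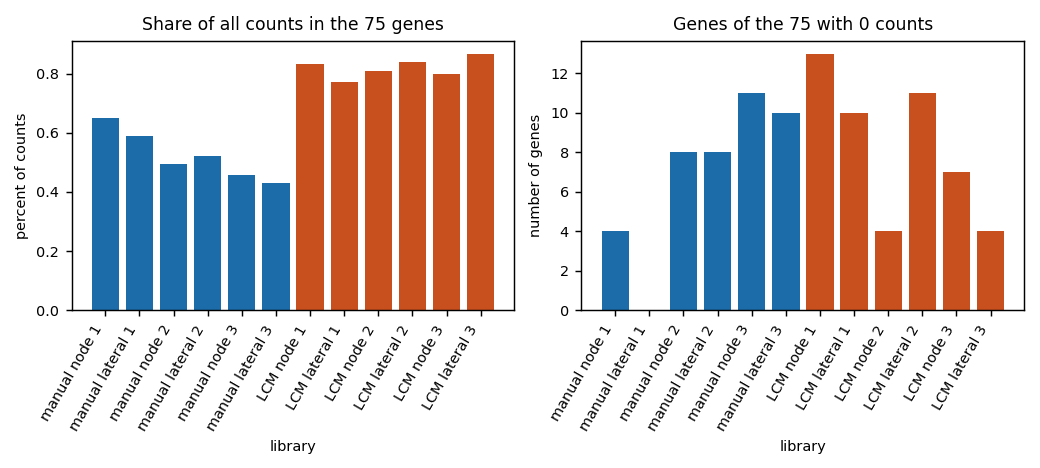
Left, percent of all counts that fell in the 75 genes; right, number of the 75 with no count, both by library (bars from 0; blue manual, orange LCM). The 6 LCM libraries lie between 0.771 and 0.868% and the 6 manual libraries between 0.43 and 0.649%, while the number of genes at 0 overlaps between methods.

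Chromosome condensation genes held the largest positive fold change. MKI67, which coats mitotic chromosomes and is the usual marker of cycling cells (chromosome 6, 32890714 to 32910556), measured 22.3, 5.13 and 0 CPM in manual node libraries and 13.8, 1.70 and 2.39 CPM in manual lateral libraries. After LCM it measured 152, 66.2 and 303 CPM in the node and 117, 354 and 257 CPM laterally. All 6 LCM libraries lay above all 6 manual ones, with a log2 fold change of 4.85 ± 0.99 (unadjusted p = 0.000843, adjusted p = 0.194 by edgeR). TOP2A, the topoisomerase that untangles sister chromatids, gave embryo sums of 89.1, 14.1 and 3.76 CPM in manual embryos 1 to 3 and 197, 230 and 225 CPM in LCM embryos. As sums, the manual embryos spread widely and the LCM embryos hardly at all. Single LCM libraries ran from 81.4 to 444 CPM, both within LCM embryo 2. The methods overlapped by library, since LCM lateral 2 (81.4 CPM) lay below manual lateral 1 (97.7 CPM). Its log2 fold change was 2.61 ± 0.96 (adjusted p = 0.295). NCAPD2 measured 25.2 to 92.2 CPM in manual and 123 to 198 CPM in LCM libraries, again without overlap (1.30 ± 0.47). Of the condensin II subunits, NCAPD3 gave 0.28 ± 0.61, and NCAPG2 and NCAPH2 were the members of this group on the manual side.

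At the outer kinetochore the estimates fell on both sides of 0. CENPF, a large microtubule-binding protein of late G2 and mitosis (chromosome 3, 20356020 to 20391564), measured 31.6, 23.5 and 10.6 CPM in manual node libraries and 29.4, 8.44 and 6.48 CPM in manual lateral libraries. After LCM it measured 162, 308 and 191 CPM in the node and 213, 171 and 199 CPM laterally. Every LCM library lay above every manual one, and CENPF had the smallest p of the members: 3.44 ± 0.58 (95% interval 2.14 to 4.75, unadjusted p = 0.000211, adjusted p = 0.139 by edgeR). CENPE gave embryo sums of 38.6, 6.48 and 0.344 CPM against 103, 198 and 111 CPM (3.18 ± 1.26). NDC80 and NUF2, the core of the same structure, gave -0.13 ± 0.44 and -0.43 ± 0.38. Their 95% intervals of -1.12 to 0.87 and -1.28 to 0.42 lie below that of CENPF. The interval of CENPE, 0.34 to 6.02, overlaps both, and the difference between genes was not tested.

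Kinases, checkpoint genes and cyclins were split in the same way. PLK1 (chromosome 14, 6884685 to 6889434) gave embryo sums of 125, 89.1 and 114 CPM in manual and 414, 488 and 254 CPM in LCM embryos. The LCM libraries all lay above the manual ones, and the log2 fold change was 1.82 ± 0.38 (adjusted p = 0.194, edgeR). BUB1B, a checkpoint protein that binds CDC20, gave 1.30 ± 0.53, BUB1 0.48 ± 0.62 and TPX2 1.18 ± 0.68. AURKA was on the manual side at -0.75 ± 0.35, its embryo sums of 222, 305 and 338 CPM in LCM embryos lying at or below 338, 599 and 515 CPM in manual ones. BUB3 gave -0.48 ± 0.34, CCNB2 -0.11 ± 0.34 (95% interval -0.88 to 0.66) and CCNA2 0.89 ± 0.54. PLK2 gave embryo sums of 13.8, 9.39 and 10.7 CPM in manual embryos and 0, 0.48 and 0.0323 CPM in LCM embryos, with a log2 fold change of -6.03 ± 2.15 (adjusted p = 0.283).

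Of 13 inner kinetochore genes, 9 were on the LCM side. CENPN, which reads the centromeric nucleosome (chromosome 11, 14834309 to 14840371), lay on the manual side, with 85.4 to 147 CPM in manual libraries and 34.0 to 68.0 CPM in LCM libraries. It was the 1 member of 72 whose 6 LCM libraries all lay below the 6 manual ones, as 2.12% of all genes did, and its log2 fold change was -1.27 ± 0.44 (adjusted p = 0.268, edgeR). The LCM embryo sums of CENPO also all lay below the manual ones (63.8, 13 and 57.7 against 71.3, 80.1 and 104 CPM), but its libraries overlapped. CENPW gave 0.58 ± 0.39 and CENPI -0.54 ± 0.53. CENPT, which links the inner and outer kinetochore, gave 1.73 ± 0.75, from embryo sums of 17.8, 12.3 and 7.92 CPM against 62.2, 33.6 and 30.3 CPM. The sum of LCM embryo 1 rests on its lateral library, with 2923 counts against 1 in the node. That node library, at 0.0384 CPM, lay below every manual library (lowest 3.48 CPM). Over all settings the CENPT log2 fold change ran from 0.11 to 2.74. Of the centriole genes PLK4 gave 1.96 ± 0.74 and CENPJ 1.02 ± 1.87.

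All 11 mitotic kinesins had a positive LCM over manual fold change, from 0.11 for KIF14 to 2.28 for KIF4A, with a median of 1.24; it was 10 of 11 with the carried share subtracted, in lateral libraries alone, without manual embryo 2 and without manual embryo 3, 9 of 11 without LCM embryo 2 and 9 of 10 in node libraries alone. KIF4A, which compacts chromosomes and organises the midzone, gave embryo sums of 95.3, 29.1 and 3.21 CPM in manual and 141, 326 and 151 CPM in LCM embryos (2.28 ± 0.97). KIF2A gave 47.8, 60 and 78.8 CPM against 129, 316 and 152 CPM (1.68 ± 0.48, adjusted p = 0.235 by edgeR). By library KIF2A overlapped between methods: LCM lateral 1, at 58.7 CPM, lay inside the manual range of 44.7 to 88.6 CPM. KIF11 and KIF20A gave 1.29 ± 0.64 and 0.48 ± 0.53. Only KIF4A and KIF2A of the 11 had an unadjusted p below 0.05.

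Kinesins outside mitosis had a median of 1.38, with 14 of 17 positive. KIF26A (chromosome 5, 50610382 to 50708576) gave embryo sums of 226, 79.2 and 115 CPM in manual embryos and 644, 509 and 394 CPM in LCM embryos. Its LCM libraries all lay above its manual ones, making it 1 of 5 such members with CENPF, MKI67, NCAPD2 and PLK1, where 2.3% of all genes did so. The log2 fold change was 1.88 ± 0.45 (adjusted p = 0.22, edgeR). KIF16B gave 1.23 ± 0.69. KIF9, a kinesin of motile cilia, was on the manual side, with counts of 118, 153, 0, 103, 0 and 124 in the manual libraries and 0 in all LCM libraries but node 2, whose 8 counts are fewer than the 10 that the carried share would give. The median outside the non-mitotic kinesins was 0.71, with 40 of 55 positive.

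**Figure D4:**
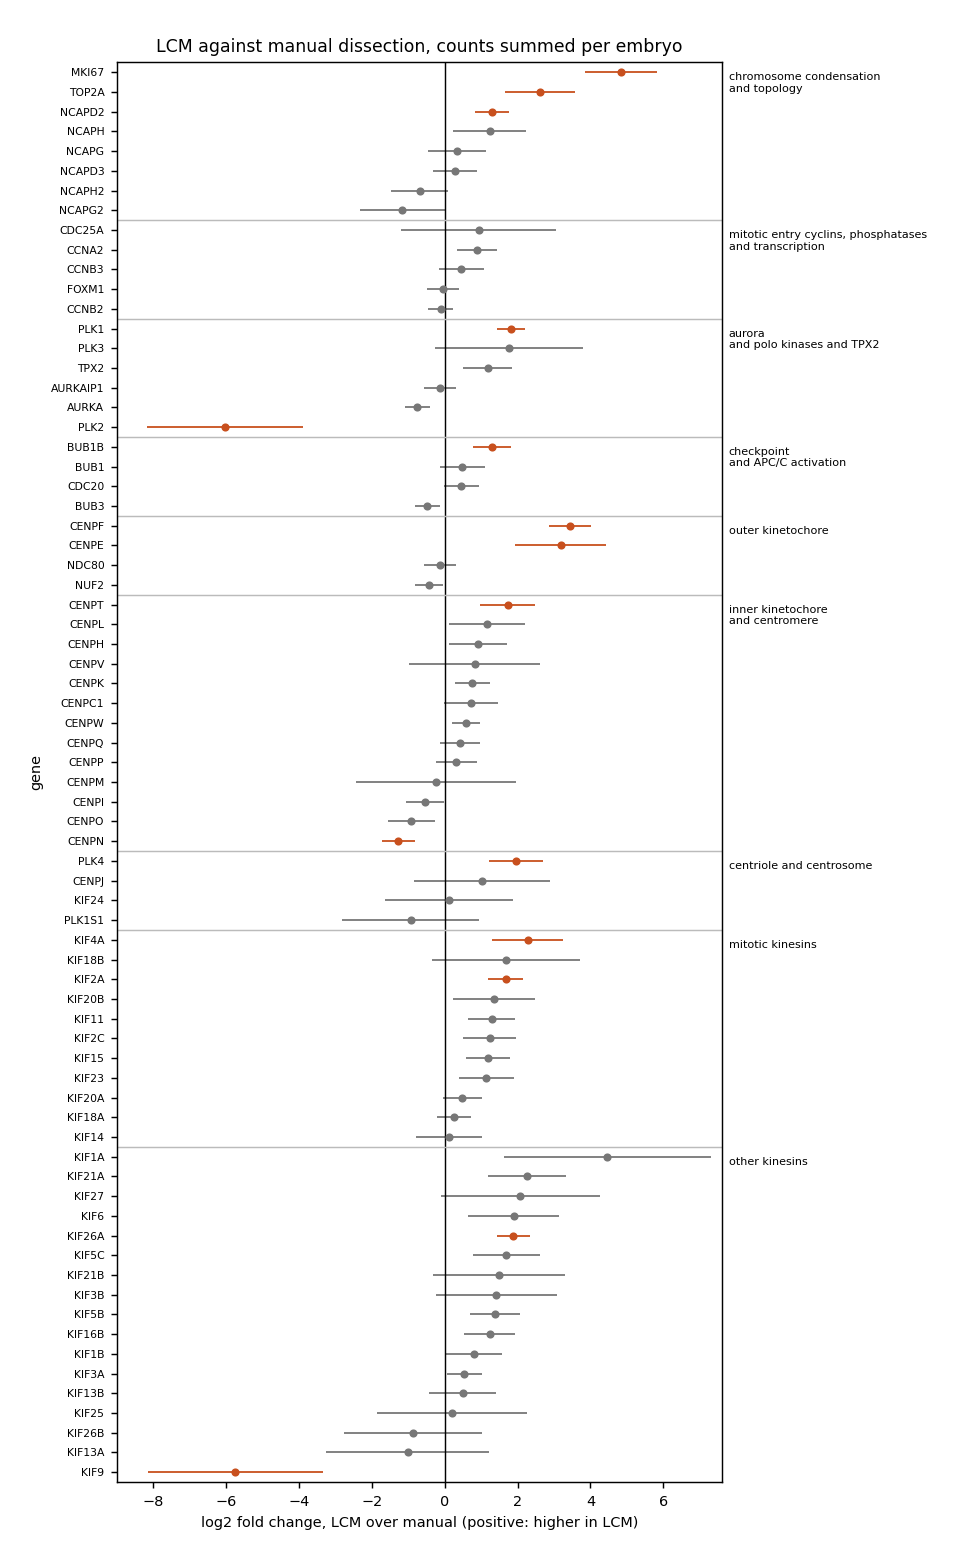
Log2 fold change of LCM over manual embryo sums (horizontal axis; positive is higher in LCM) for the 72 tested members by role (vertical axis); points are edgeR estimates, bars are 1 standard error, and orange marks an unadjusted p below 0.05. The 11 mitotic kinesins lie right of 0. MKI67 (4.85) lies farthest right with a bar of 0.99, and CENPF (3.44) has a shorter bar of 0.58. PLK2 and KIF9 lie far left with long bars.

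Manual embryo 1 lay nearer to the LCM embryos than did manual embryos 2 and 3 in several of these genes. Its TPX2 sum of 416 CPM lay inside the LCM range of 367 to 522 CPM, against 68.8 and 71.0 CPM in manual embryos 2 and 3. For KIF11, KIF15, KIF20B and KIF21A it also reached into the LCM range, and for MKI67, TOP2A, CENPF, CENPE and KIF4A it was the highest manual embryo. It also had the fewest genes at 0 among manual embryos, 2485 and 1609 in its libraries against 4123 to 4728 in the others, and their part in these levels was not tested. Without manual embryo 1 edgeR called 7 members, CENPF, MKI67, TPX2, TOP2A, KIF26A, KIF21A and PLK1, all higher in LCM, where 1.43% of all genes were called. Their adjusted p values there were 0.0139 for CENPF and for TPX2, 0.0105 for MKI67, 0.0291 for TOP2A, 0.0308 for KIF26A and 0.0478 for PLK1. The TOP2A fold change moved to 4.61 and the TPX2 one to 2.56 on the log2 scale. Because manual embryo 1 lay nearest to the LCM embryos in such genes, leaving it out widens their separation by itself. These calls are therefore not a separate result, and leaving out any other embryo gave no call among the members. The DESeq2 calls with all 6 embryos were CENPF, MKI67, PLK1, KIF26A and KIF2A (higher in LCM) and CENPN and PLK2 (lower). The summed presomitic mesoderm markers given above were higher in all LCM node libraries than in all manual libraries, by DLL1 (5840 to 9448 counts against 53 to 470). TBX6 and MSGN1 did not follow in every library: LCM node 2 had 52 and 33 counts of them, below every manual library. The part of these markers in the LCM values was not tested.

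**Figure D5:**
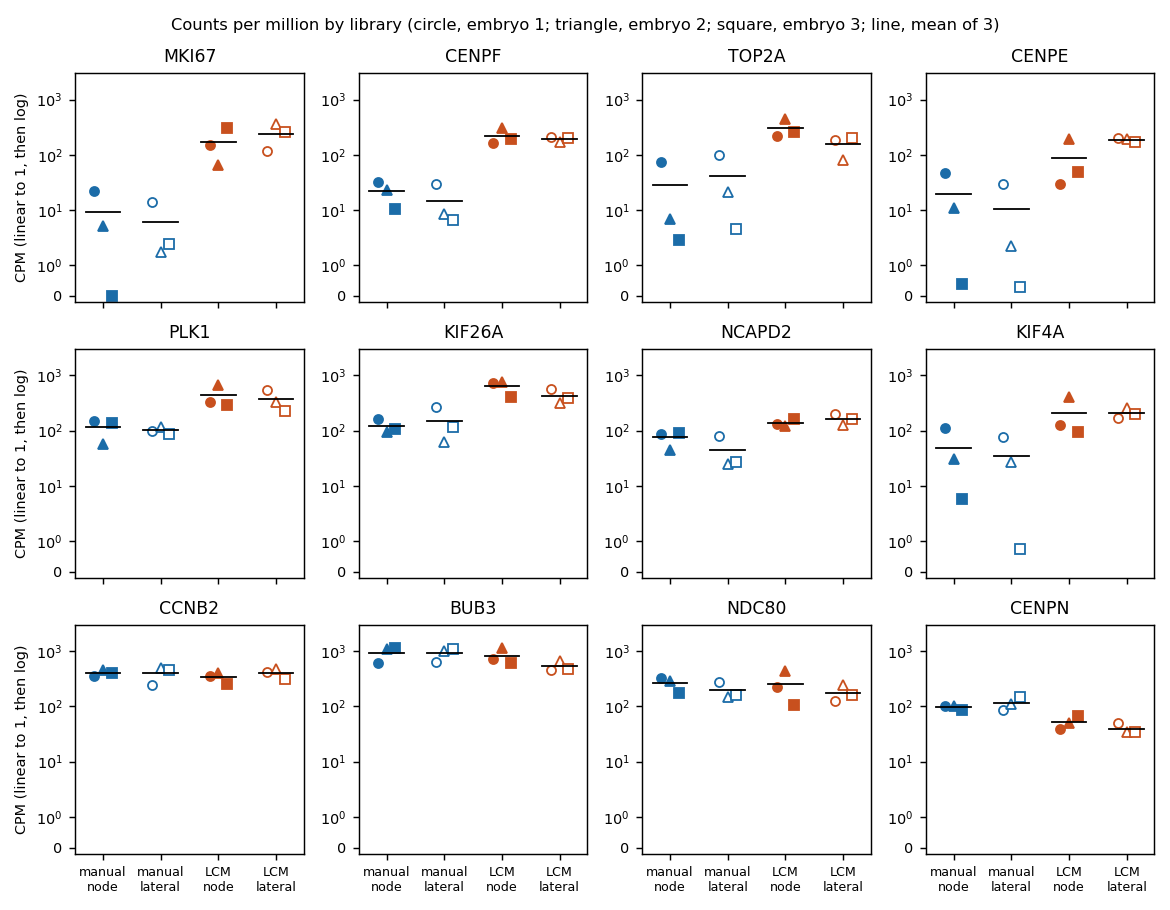
CPM of 12 members (panels) in the 4 groups, 3 libraries each; the vertical axis is linear to 1 and logarithmic above it, filled symbols are node and open symbols lateral libraries, and lines are means. MKI67, CENPF, PLK1, KIF26A and NCAPD2 do not overlap between methods, CENPN is lower after LCM (34.0 to 68.0 CPM against 85.4 to 147), and CCNB2, BUB3 and NDC80 overlap.

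Mitosis genes that the name pattern does not reach were listed by function and counted for comparison. Of 16 chromosomal passenger, cohesin and condensin genes tested, 13 were on the LCM side, with a median log2 fold change of 1.21. At an unadjusted p below 0.05, 5.44% of all genes were higher in LCM and 7.83% lower. In that list 8 genes had such a p, each higher in LCM: the condensin cores SMC2 (2.92 ± 0.77) and SMC4 (2.91 ± 1.07), the cohesin genes SMC3 (2.50 ± 0.65), STAG2 (1.40 ± 0.48) and PDS5A (2.38 ± 0.68), TOP2B, and the passenger genes INCENP (2.00 ± 0.55) and CDCA8 (1.42 ± 0.52). Of 20 spindle assembly and cytokinesis genes 15 were on the LCM side, with CKAP2 (2.21 ± 0.42), ASPM (3.18 ± 0.97) and PCNT (2.56 ± 1.05) at an unadjusted p below 0.05 and ECT2 (-1.17 ± 0.47) on the manual side. The lists of other checkpoint and kinetochore genes (11 of 19 positive, median 0.37) and of APC/C and mitotic entry genes (15 of 24, median 0.41) held none on the LCM side at that p, and held SKA2, ARPP19 and LIN52 on the manual side. None of these genes passed an adjusted p of 0.05 by edgeR. For node against lateral the 4 lists, with 19, 16, 21 and 24 genes tested, held 3 genes at an unadjusted p below 0.05, a share near the 3.41% of all genes: WEE1, the kinase that holds back mitotic entry, at -1.79 ± 0.71 and lower in the node of 6 of 6 embryos, ANAPC1 at 1.46 ± 0.66 and PDS5A at 0.99 ± 0.45.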

How the data were processed

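RNA of 12 libraries (6 chick embryos, node and lateral) was extracted on miRNeasy columns and amplified with a SMARTer low RNA kit, per the labels' protocols; such small inputs can drop transcripts from single libraries. The authors deposited raw read counts per Ensembl gene. The authors also deposited a normalized signal, each count divided by a size factor per library. Bowtie2 2.2.3 is named in the submitters' processing notes. The sources used here do not give the counter, the use of strand or the genome build, so coordinates are those of the deposited table, and overlapping or near-identical genes cannot be told apart.

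Tests on the counts used the quasi-likelihood method of edgeR 4.0.16 (R 4.3.3) after TMM scaling and filterByExpr (at least 10 counts, total at least 15), with Benjamini-Hochberg adjustment over all genes tested and a threshold of 0.05. Node against lateral had the embryo as a block, since the labels name the same embryo for both libraries. Deviations from group means correlated at 0.116 to 0.473 within manual embryos, but only at 0.0295 to 0.0704 within LCM embryos. LCM against manual used counts summed per embryo. Alternatives used DESeq2 1.42.0, limma 3.58.1 (voom, and log2 of the normalized values with a pseudocount of 1), other filters and scalings, subtraction of the carried share, and leaving out each embryo. CPM are counts scaled to TMM library size. Scripts were tested on simulated data with a smaller spread between libraries than found here, which does not measure their power in these data. Standard errors were derived from the edgeR test, as the absolute log2 fold change over the square root of its F statistic. The 95% intervals are symmetric and come from these standard errors and a t distribution, so they rest on the fitted spread between libraries. The limit for a count of 0 (3 counts) covers counting error only.

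The members, roles and lists were chosen with earlier results of these data known. The members described singly are the 8 with the smallest p in each of the 2 comparisons and the 2 with the highest mean level in each role; others named were chosen after their values were seen.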

Additional observations from a re-analysis of the deposited data

Results flagged for a closer look

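In 4 of 37 members examined, 1 embryo's node minus lateral difference stood apart from the other 5 on the log2 CPM scale by Dixon's test. That test marks about 1 in 20 groups by chance. The rate does not apply here, because some of the 37 were chosen by their node against lateral values. The share of all genes so marked is not given, so the number of members says nothing about the members as a set. NCAPD3 had a difference of 5.36 in LCM embryo 1, from 7350 node and 135 lateral counts. CCNB2 had 0.54 in manual embryo 1, against -0.28 to -0.08 in the others. KIF13B had -7.94 in LCM embryo 3, from 1 node and 967 lateral counts. CENPT had -10.23 in LCM embryo 1, from 1 node and 2923 lateral counts.

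In 2 members every manual embryo and every LCM embryo had opposite signs. The share of all genes with such signs is not given here, so the number of members says nothing about the members as a set. TOP2A was lower in the node of all manual embryos and higher in the node of all LCM embryos, and the test of that difference gave 1.88 ± 0.87 (log2, unadjusted p = 0.0512, adjusted p = 1 by edgeR). CENPE had the opposite arrangement, with a difference of -2.72 ± 1.17 (unadjusted p = 0.0379, adjusted p = 1 by edgeR), but its sign rests on -0.01 log2 CPM in LCM embryo 2 and on 7 against 6 counts in manual embryo 3.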

How the results depend on the processing

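By edgeR as described, no member was called in any comparison. DESeq2 called 2 members for node against lateral over all embryos, 5 within LCM embryos, 1 for the difference between methods and 7 for LCM against manual. Without a filter on low counts edgeR called 1 in LCM embryos and 1 for the difference (FOXM1, 0.252% and 0.0382% of all genes) and 2 for LCM against manual (CENPF and MKI67, 0.145%). Leaving out 1 embryo gave 0 to 1 members in LCM embryos (FOXM1 without LCM embryo 3, 0.0893%), 0 to 7 for LCM against manual, and 0 in the other comparisons. For the reasons given above, neither the FOXM1 call nor the calls without manual embryo 1 are a separate result. Other causes were not tested. A stricter minimum count of 50, median-of-ratios factors, limma voom, the authors' normalized values and the carried share subtracted gave 0 members in every comparison, as did the fit without the replicate block for node against lateral and the fit with a replicate block on the embryo number for LCM against manual (numbers that correlate at 0.00373 to 0.0137 and pair nothing). With the carried share subtracted, the median of all genes moved from 0.17 to -0.06 for node against lateral and from 0.36 to -0.10 in LCM embryos. Under limma voom it moved from 0.06 to -0.26 for LCM against manual. Members with a positive value numbered 29 to 38 for node against lateral. For LCM against manual they numbered 49 to 57 on embryo sums, 45 of 64 in node libraries alone and 48 of 67 in lateral libraries alone. Of the log2 fold changes of single members under an alternative, 880 kept their direction and side of the threshold, 26 passed it and 32 turned sign. For node against lateral the turned values were: BUB1 -0.05 with median-of-ratios factors, -0.05 by DESeq2, -0.05 on the normalized values, -0.17 with the carried share subtracted, -0.02 without the replicate block, -0.13, -0.11 and -0.10 without manual embryos 1, 2 and 3 and -0.12 without LCM embryo 3; TPX2 0.02 and PLK4 0.24 under voom; CENPJ 1.44 without the block; CENPW 0.03 unfiltered; and, on leaving out 1 embryo in turn, CENPW -0.21 to 0.11, NCAPD2 -0.06 to 0.54, CCNA2 -0.34 to 0.00, TPX2 -0.50 to 0.20, CENPI -0.29 to 0.03 and KIF16B -0.13 to 0.67. For LCM against manual they were: NCAPD3 -1.22 and CCNB2 0.02 in lateral libraries alone, CENPJ -0.55 under voom, -0.44 on the normalized values and -0.15 with the replicate block, and, on leaving out 1 embryo in turn, NCAPD3 -0.33 to 0.82, CCNB2 -0.30 to 0.12, NDC80 -0.57 to 0.19 and CENPJ -0.36 to 2.57. The common coefficient of variation in the fits was 111% for LCM against manual and 119 to 122% for node against lateral.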
